A study of Mus musculus with 16 samples.

Results

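Metallothioneins are small, cysteine-rich proteins that bind zinc and copper in the cytoplasm. The set described here holds the metallothionein gene Mt1 with its relatives Mt2, Mt3 and Mt4, the zinc-sensing transcription factor gene Mtf1, and the zinc transporter genes Slc30a1, Slc39a1, Slc39a6, Slc39a8 and Slc39a10. These 10 genes were picked by name, with the knowledge that Mt1 was near 0 in wild-type oocytes and high in oocytes lacking Psma7, so that the genotype values of Mt1 are given as a description and not tested. Each of the 10 had 1 entry among the 28618 entries (27987 gene names) of the expression table.

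The study examined mouse oocytes from which Psma7, encoding an alpha-ring subunit of the 20S proteasome core, had been deleted by a Cre recombinase driven by the Zp3 promoter, which acts in growing oocytes (Psma7 fl/fl with Zp3-Cre, called Psma7 cKO). The controls were labelled wildtype (WT), with neither a floxed allele nor a Cre named for them, so that the loss of Psma7 and the presence of the transgene cannot be told apart. Fully grown oocytes, still with a germinal vesicle (GV), were taken 44 h after 5 IU of pregnant mare serum gonadotropin (PMSG) from females aged 3 to 4 weeks. Eggs at metaphase II (MII) were taken from the oviducts of females of the same age that had the same dose of PMSG and, 44 h later, human chorionic gonadotropin (hCG), with collection 14 to 16 h after hCG and removal of the surrounding cells with 0.3% hyaluronidase. Each of the 4 groups (WT GV, Psma7 cKO GV, WT MII and Psma7 cKO MII) had 4 libraries, described in the labels as biological replicates of 5 oocytes each, whereas the study's methods give another number per sample, and which animals gave which oocytes was not stated. The p-values therefore measure the spread between these pools. Values are FPKM, that is, mapped fragments scaled to transcript length and to library size, which can be compared between genes as levels per length.

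Zinc enters the oocyte during meiotic maturation and is needed for arrest at metaphase II, and part of it is released when the egg is fertilized. Transporters of the SLC39 (ZIP) family move zinc into the cytosol, and those of the SLC30 (ZnT) family move it out of the cytosol, across the plasma membrane or into vesicles. When cytosolic zinc is high, MTF1, the protein made from Mtf1, binds metal response elements in the promoters of Mt1, Mt2 and Slc30a1.

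Depth was estimated at 10.5 to 15.7 M fragments per library (median 13.6), from the step size of low values, and the genotypes had like depths (p = 0.886 at both stages in a two-sided exact permutation test, where 0.0286 is the smallest p that 4 against 4 allows). Summed FPKM lay between 392306 and 421173, and was higher in Psma7 cKO than in WT eggs (means 408156 and 396335, exact permutation p = 0.0286). Psma7 had 142 to 201 FPKM in WT GV oocytes and 11.1 to 18.0 FPKM in Psma7 cKO GV oocytes. In eggs it had 97.7 to 172 FPKM in WT libraries and 13.6, 50.3, 35.0 and 59.9 FPKM in Psma7 cKO replicates 1 to 4, so that all 8 Psma7 cKO libraries stood below all WT libraries. All 11 oocyte markers examined, among them Zp3, Gdf9 and Mos, had a mean of at least 1 FPKM in each group. Of 12 granulosa and cumulus cell markers, 3 (Cyp19a1, Kitl and Nr5a2) had a mean of at least 1 FPKM, in each of the groups alike. The summed FPKM of the 12 was 15.8 to 17.3 in WT GV, 17.1 to 20.4 in Psma7 cKO GV, 19.4 to 23.3 in WT MII and 22.1 to 23.3 in Psma7 cKO MII libraries. Of the 12, 2 were at 0 in every WT GV library, 2 in every Psma7 cKO GV library, 4 in every WT MII library and 3 in every Psma7 cKO MII library. The median summed level was 16.6 FPKM in WT GV and 19.2 FPKM in Psma7 cKO GV libraries, and the ranges overlapped. In such pools fewer cells of a type and less RNA per cell cannot be told apart, and the part of other cells in the Mt1 values was not tested.

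Mt1, Mt2, Mt3 and Mt4 lie in 1 cluster on mouse chromosome 8. In the annotation of the mm10 build (GENCODE M21) Mt1 (ENSMUSG00000031765.8) is a protein-coding gene on the plus strand at chr8:94179082-94180327. Relative to its start, Mt2, Mt3 and Mt4 start at -6.42, -26.5 and -41.9 kb, all on the same strand. The stretches before the start sites of Mt1, Mt2 and Mt4 are shown because Mt1 and Mt2 are the classical metal-induced pair, whereas Mt4 was the only family member above 1 FPKM in WT oocytes. They are the 250 bases upstream of the RefSeq start site (GRCm38.p6, plus strand, Mt1 at chr8:94178839-94179088, Mt2 at chr8:94172368-94172617, Mt4 at chr8:94136954-94137203), written 5′ to 3′, and capitals mark matches to the core of the metal response element, searched as TGCACNC and TGCGCNC on both strands.
Mt1: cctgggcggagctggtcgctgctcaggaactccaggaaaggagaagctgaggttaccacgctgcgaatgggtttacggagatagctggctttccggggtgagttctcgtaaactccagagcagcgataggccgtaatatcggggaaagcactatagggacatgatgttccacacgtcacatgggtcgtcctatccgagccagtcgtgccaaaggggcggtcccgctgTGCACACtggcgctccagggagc
Mt2: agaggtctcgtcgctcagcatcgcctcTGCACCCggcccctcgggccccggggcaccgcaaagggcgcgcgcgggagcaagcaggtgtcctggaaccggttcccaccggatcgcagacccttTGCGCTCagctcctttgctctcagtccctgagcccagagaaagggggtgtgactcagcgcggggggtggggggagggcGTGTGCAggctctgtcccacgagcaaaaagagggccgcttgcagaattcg
Mt4: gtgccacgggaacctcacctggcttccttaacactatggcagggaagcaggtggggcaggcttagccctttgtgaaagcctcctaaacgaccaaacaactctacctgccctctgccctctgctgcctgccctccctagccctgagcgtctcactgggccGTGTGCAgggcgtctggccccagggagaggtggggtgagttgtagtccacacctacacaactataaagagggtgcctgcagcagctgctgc

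In the full RefSeq windows of 300 bases, from 250 before to 50 after the start site, Mt1 had 3 matches (starting at positions -23, 3 and 21 from the start site), Mt2 had 4, and Mt3 and Mt4 had 1 each. Slc30a1 had 2 matches, and 1 of the 2 windows listed for Slc39a8 had 1. No match was found in the windows of Mtf1, Slc39a1 or Slc39a10. Among all 32851 windows of this length 25.7% held at least 1 match, 7.11% at least 2, 1.97% at least 3 and 0.517% at least 4. Mt1-201, the first of the 3 annotated Mt1 transcripts, starts 7 bases before the RefSeq site, while the other 2 start 122 and 152 bases after it and have no window of their own here. The bases just before those 2 starts lie past the end of the Mt1 window and were not searched. The matches of Mt1 therefore do not cover all of its annotated promoters, and which start these oocytes use was not tested. A match says only that these letters occur.

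Mt1 was close to 0 in WT and among the abundant transcripts in Psma7 cKO, at both stages. WT GV replicates 1 to 4 had 0.257, 0.376, 0.286 and 0 FPKM of Mt1. Psma7 cKO GV replicates 1 to 4 had 170, 140, 145 and 214 FPKM. In WT eggs the values were 0.106, 0.180, 0.184 and 0.200 FPKM, and in Psma7 cKO eggs they were 51.9, 33.2, 113 and 63.0 FPKM. The lowest Psma7 cKO library thus held 33.2 FPKM and the highest WT library 0.376 FPKM, with no overlap at either stage. Higher values without overlap were found for 4.25% of all entries tested in GV oocytes and for 13.6% in eggs. The group means were 0.230 ± 0.161 and 167 ± 34.2 FPKM in GV oocytes and 0.167 ± 0.0416 and 65.3 ± 34.2 FPKM in eggs (mean ± SD, n = 4 each).

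**Figure D1:**
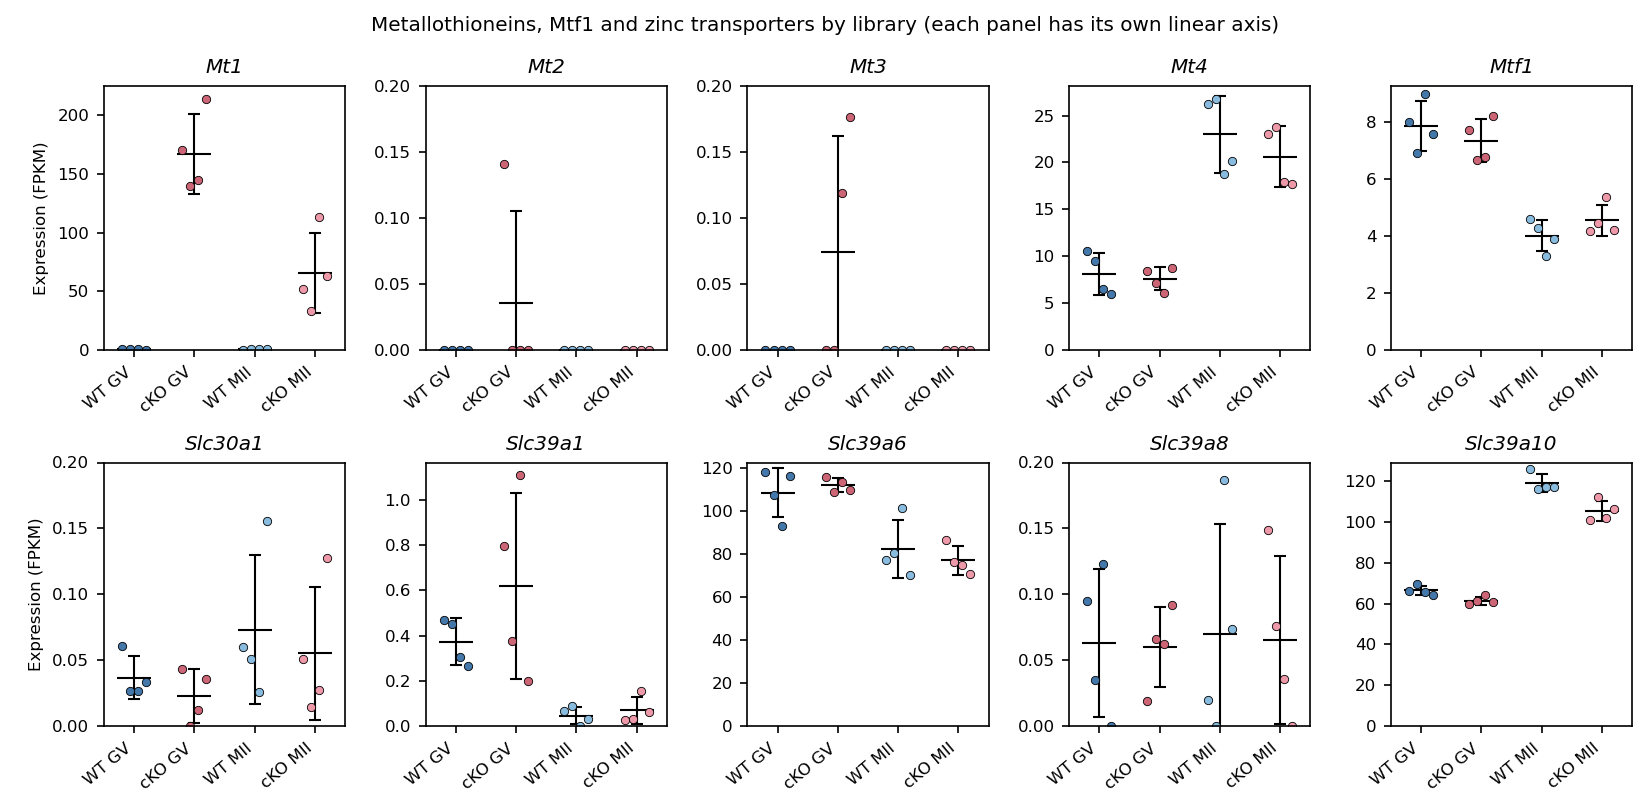
FPKM of the 10 genes in each library (points, 4 per group, in replicate order from left to right), with the group mean (horizontal bar) and SD (error bar); each panel has its own linear axis that starts at 0. Mt1 is near 0 in both WT groups and between 33.2 and 214 FPKM in the 8 Psma7 cKO libraries, Mt2 and Mt3 stay below 0.2 FPKM, and Mt4 and Slc39a10 are higher in eggs of both genotypes.

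The values of Mt1 could be turned back into fragments, since with a transcript length of 760 nt all 16 were whole numbers within 0.02 (its annotated transcripts are 549 to 1085 nt long). WT GV libraries then held 3, 4, 3 and 0 fragments of Mt1, and WT MII libraries 1, 2, 2 and 2. Psma7 cKO GV libraries held 1655, 1553, 1720 and 1715 fragments, and Psma7 cKO MII libraries 579, 322, 1157 and 630. The ratio of the mean FPKM in Psma7 cKO to that in WT was 727 in GV oocytes (95% exact Poisson interval from 396 to 1517, resting on 10 fragments in WT). In eggs it was 390 (189 to 970, resting on 7 fragments). These intervals cover counting error only. Against a floor of 1 FPKM, the level the study set for low values, Mt1 was at least 167-fold higher in Psma7 cKO GV oocytes and at least 65.3-fold higher in Psma7 cKO eggs. Among all 28618 entries Mt1 ranked between 307 and 500 from the top in Psma7 cKO GV libraries, between 594 and 1712 in Psma7 cKO eggs, and between 13180 and 20474 in WT libraries.

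Mt2 (chr8:94172664-94173568) and Mt3 (chr8:94152607-94154146) stayed at or near 0 where Mt1 was high. Mt2, the metallothionein that is usually induced together with Mt1, was at 0 in 15 of the 16 libraries. The exception was Psma7 cKO GV replicate 1 with 0.141 FPKM, the value of 1 fragment. Mt3, known mainly from brain, was at 0 in 14 libraries and had 0.119 and 0.177 FPKM in Psma7 cKO GV replicates 3 and 4, again 1 fragment each. A count of 0 allows up to 3 fragments, which is 0.345 to 0.513 FPKM for Mt2 and 0.356 to 0.530 FPKM for Mt3, depending on the library. Up to that level, a difference in Mt2 or Mt3 between genotypes was not detectable at this depth. Mt1 and Mt2 have similar coding sequences, and how fragments that match both were assigned was not given in the sources used here.

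Mt4 (chr8:94137197-94139031), first described in stratified epithelia, was the only metallothionein above 1 FPKM in WT oocytes and eggs. It had 10.5, 9.49, 6.50 and 5.92 FPKM in WT GV replicates 1 to 4, and 8.40, 7.16, 6.05 and 8.75 FPKM in Psma7 cKO GV replicates. In eggs it had 26.3, 26.8, 18.8 and 20.2 FPKM in WT libraries and 23.0, 23.8, 17.9 and 17.7 FPKM in Psma7 cKO. The genotypes overlapped at both stages, while every egg library was above every GV library (GV and MII values did not overlap, in either direction, for 72.7% of entries in WT and 68.6% in Psma7 cKO). The Mt4 log2 fold change between Psma7 cKO and WT was -0.07 in GV oocytes (95% interval -0.51 to 0.38, limma adjusted p = 0.935) and -0.15 in eggs (-0.50 to 0.19, adjusted p = 0.535). The sign in GV oocytes was not settled, as it changed when any of 3 libraries was left out. From GV to MII, Mt4 rose in WT by 1.53 on the log2 scale (standard error 0.20, limma adjusted p = 3.38e-05) and in Psma7 cKO by 1.44 (standard error 0.16, adjusted p = 3.73e-05). The level in eggs was 284% of that in GV oocytes in WT and 271% in Psma7 cKO. Mt4 thus moved opposite to the typical transcript, since the median log2 change of all entries tested was -0.44 in WT and -0.42 in Psma7 cKO. These values rest on 26 to 153 fragments of Mt4 per library.

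The genes beside Mt1 were also read. Of the 10 genes with an annotated start within 100 kb of that of Mt1 (Mt1 included), 8 had an entry in the table, and Gm45774 and Gm45804 had none. Nup93, a nucleoporin gene that starts 35.5 kb after Mt1, had means of 49.8 and 52.2 FPKM in WT and Psma7 cKO GV oocytes and 34.4 and 35.5 FPKM in eggs. Bbs2, a ciliary gene that starts at -80.2 kb, had 4.27 and 4.11 FPKM in GV oocytes and 1.86 and 2.00 FPKM in eggs. The pseudogene Rpl10-ps5, 43.9 kb after Mt1, had 1.31, 1.21, 0.764 and 0.984 FPKM in WT GV, Psma7 cKO GV, WT MII and Psma7 cKO MII. Gm39228, a noncoding gene whose start is 4.21 kb after that of Mt1, did not exceed 0.0619 FPKM in any library. No neighbour of Mt1 had separate WT and Psma7 cKO levels of the size seen for Mt1, and Mt2, the nearest protein-coding gene, stayed at 1 fragment or fewer.

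**Figure D2:**
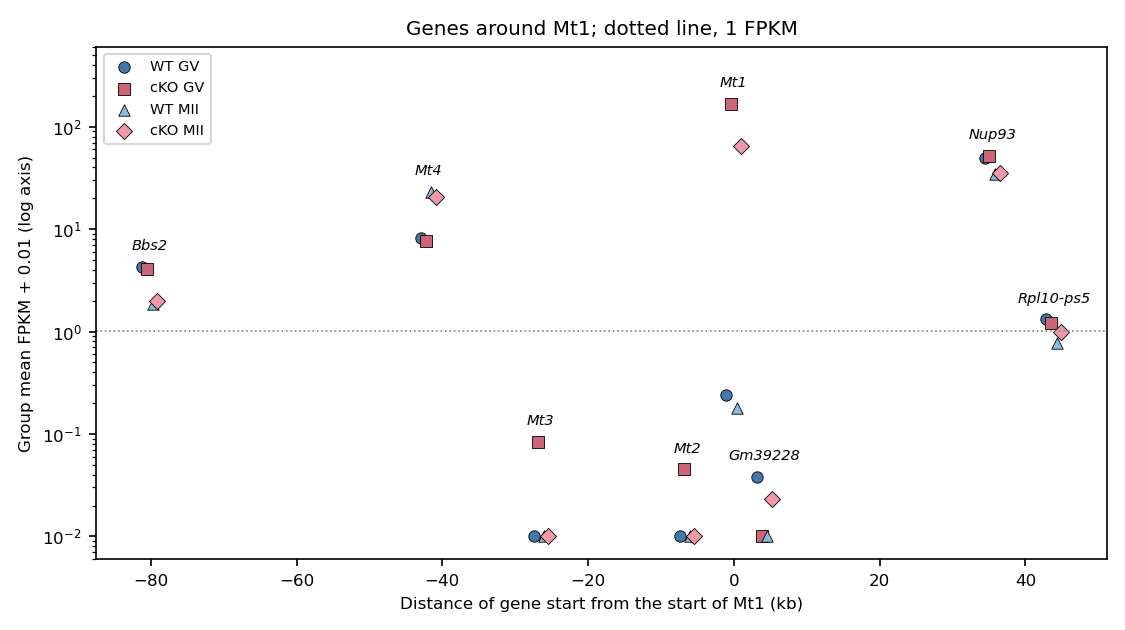
Group mean FPKM plus 0.01 (log axis, n = 4 libraries per group) of the genes around Mt1 that had an entry, against the distance of each gene's start from that of Mt1 in kb; the 4 groups are shifted slightly sideways so that they can be told apart, and the dotted line marks 1 FPKM. Mt1 alone has WT groups (0.230 and 0.167 FPKM) far below the Psma7 cKO groups (167 and 65.3 FPKM), while Nup93, Bbs2 and Mt4 have both genotypes side by side.

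Mtf1, whose product drives Mt1 and Mt2 transcription when zinc is high, lies at chr4:124802104-124849800 and was expressed at a modest level, with differences between genotypes inside the replicate spread. It had 7.99, 6.89, 8.98 and 7.59 FPKM in WT GV and 7.72, 6.67, 6.78 and 8.21 FPKM in Psma7 cKO GV libraries. In eggs the values were 4.58, 4.27, 3.30 and 3.89 FPKM in WT libraries and 4.15, 4.47, 5.35 and 4.22 FPKM in Psma7 cKO, so that the genotypes overlapped at both stages. The log2 fold change of Mtf1 between genotypes was -0.10 in GV oocytes (95% interval -0.38 to 0.18, limma adjusted p = 0.838) and 0.18 in eggs (-0.14 to 0.51, adjusted p = 0.421). Mtf1 fell from GV to MII in both genotypes, by 0.98 on the log2 scale in WT (standard error 0.14, limma adjusted p = 6.27e-05) and by 0.69 in Psma7 cKO (standard error 0.13, adjusted p = 9.84e-04).

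The uptake transporters Slc39a6 and Slc39a10 were the abundant zinc transporters of the set. Both are known as maternal transporters that bring zinc into the maturing mouse oocyte. Slc39a10 (chr1:46807544-46892852) had 66.1, 69.5, 65.8 and 64.3 FPKM in WT GV replicates 1 to 4, and 59.6, 61.2, 64.2 and 60.5 FPKM in Psma7 cKO GV replicates. In eggs it had 126, 116, 117 and 117 FPKM in WT libraries and 101, 112, 102 and 106 FPKM in Psma7 cKO. At both stages each Psma7 cKO library was below each WT library, with a mean of 92.4% of WT in GV oocytes and 88.5% in eggs. Values that were lower in Psma7 cKO without overlap were found for 2.42% of all entries tested in GV oocytes and for 7.06% in eggs. The difference did not pass the test over all entries at either stage. The log2 fold change of Slc39a10 was -0.11 in GV oocytes (95% interval -0.28 to 0.05, limma adjusted p = 0.635) and -0.18 in eggs (-0.31 to -0.04, limma adjusted p = 0.0942), with limma adjusted p from 0.0747 to 0.228 in eggs when each library was left out.

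From GV to MII, Slc39a10 rose in both genotypes, by 0.84 on the log2 scale in WT (standard error 0.07, limma adjusted p = 7.44e-07) and by 0.78 in Psma7 cKO (standard error 0.07, adjusted p = 1.38e-05). Its level in eggs was 179% of that in GV oocytes in WT and 172% in Psma7 cKO. Slc39a6 went the other way. It had 118, 107, 92.7 and 116 FPKM in WT GV and 116, 109, 113 and 110 FPKM in Psma7 cKO GV libraries, against 77.0, 80.4, 101 and 70.2 FPKM in WT eggs and 86.6, 76.0, 74.6 and 70.6 FPKM in Psma7 cKO eggs. The genotypes overlapped at both stages, and the log2 fold change of Slc39a6 was 0.05 in GV oocytes (95% interval -0.15 to 0.25, limma adjusted p = 0.891) and -0.09 in eggs (-0.35 to 0.17, adjusted p = 0.655). Its sign changed at each stage when replicate 3 of WT was left out. Slc39a6 fell from GV to MII by 0.41 on the log2 scale in WT (standard error 0.12, limma adjusted p = 0.00983) and by 0.54 in Psma7 cKO (standard error 0.08, adjusted p = 2.74e-04), and its WT change was 0.04 from the median of all entries. After a median-ratio rescaling of the libraries the WT change was -0.18 and no longer passed (adjusted p = 0.153). As a result of these opposite changes Slc39a6 stood above Slc39a10 in GV oocytes of both genotypes and below it in eggs of both genotypes, with no overlap between these genes in any group.

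The other transporters of the set were close to 0. Slc39a1 (chr3:90248172-90253612), an importer of the plasma membrane, had 0.470, 0.454, 0.308 and 0.264 FPKM in WT GV and 0.796, 0.376, 1.11 and 0.201 FPKM in Psma7 cKO GV libraries, and no more than 0.158 FPKM in any egg library. Its GV and MII values did not overlap in either genotype, with 49 fragments in all in WT GV oocytes against 6 in WT eggs, and 83 against 9 in Psma7 cKO. Among entries with a mean of at least 1 FPKM, 72.7% in WT and 68.6% in Psma7 cKO did not overlap between stages either. Slc30a1 (chr1:191906767-191913247), the plasma membrane zinc exporter and a target of MTF1, did not exceed 0.155 FPKM, with 11, 6, 21 and 16 fragments in all in WT GV, Psma7 cKO GV, WT MII and Psma7 cKO MII. Slc39a8 (chr3:135825279-135888572), an importer of zinc and manganese, did not exceed 0.187 FPKM. The groups overlapped between genotypes for all 3. Together with Mt2 and Mt3 they did not reach a mean of 1 FPKM over the libraries compared and were not tested.

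Counted over the set, 4 of the 9 genes other than Mt1 (Mt4, Mtf1, Slc39a6 and Slc39a10) were abundant enough to be tested between genotypes. At a limma adjusted p under 0.05, 0 of these 4 differed in GV oocytes, where 0.118% of 11062 entries did, and 0 differed at an unadjusted p under 0.05, where 10.7% did. In eggs 0 of 4 differed, against 8.02% of 9492 entries, and 1 (Slc39a10) had an unadjusted p under 0.05, against 29.4% of all entries. From GV to MII in WT, 4 of 4 changed (Mt4 and Slc39a10 higher, Mtf1 and Slc39a6 lower), where 78.5% of 10475 entries did (26.1% higher and 52.4% lower). In Psma7 cKO, 5 of 5 changed, Mt1 being the added lower one, where 74.0% of 10748 entries did (23.0% higher and 51.0% lower). Changing with stage was therefore common to most transcripts.

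**Figure D3:**
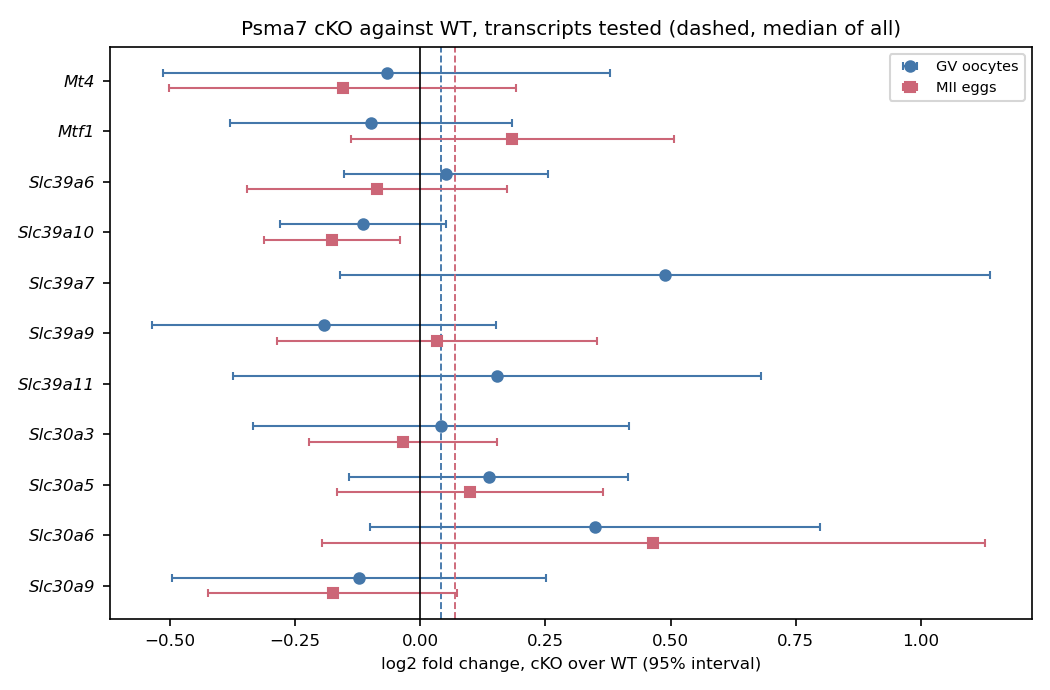
Log2 fold change of Psma7 cKO over WT with its 95% interval (limma, n = 4 libraries per group) in GV oocytes (circles) and MII eggs (squares), for Mt4, Mtf1 and the zinc transporters that were tested; dashed lines mark the median of all entries, 0.04 in GV oocytes and 0.07 in eggs. The intervals include 0 except that of Slc39a10 in eggs (-0.31 to -0.04), which did not pass the adjusted threshold.

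The same question was put to the families of zinc transporters as a whole, Slc30a1 to Slc30a10 and Slc39a1 to Slc39a14. These 24 genes had 26 entries, since Slc39a7 had 3. Between genotypes 0 of 9 tested differed in GV oocytes (median log2 fold change 0.05, all entries 0.04) and 0 of 7 in eggs (-0.04, all entries 0.07). The shares of all entries that differed were 0.118% and 8.02%. Of these transporters, 0 and 1 had an unadjusted p under 0.05, against 10.7% and 29.4% of all entries. Slc39a11 in GV oocytes (0.977 FPKM in WT, 1.15 FPKM in Psma7 cKO) passed the filter only through the Psma7 cKO group. So did Slc30a6 in eggs (0.658 and 1.51 FPKM). Slc30a6 did not overlap there, with at most 0.799 FPKM in WT and at least 1.03 FPKM in Psma7 cKO, as for 13.6% of entries. The floor of 1 FPKM shortened its log2 difference, which was 0.47. From GV to MII, 1 rose and 6 fell of 7 tested in WT, where 26.1% of all entries rose and 52.4% fell. In Psma7 cKO 1 rose and 7 fell of 8 tested, where 23.0% of all entries rose and 51.0% fell. Slc39a10 was the 1 that rose in each. Among those tested, 2 had the steepest falls on the log2 scale with values below 1 FPKM set to 1. These were Slc30a3, a vesicular zinc transporter known from synapses, and Slc30a6, a transporter of the secretory pathway. Slc30a3 had 187 ± 43.6 FPKM in WT GV and 45.0 ± 2.21 FPKM in WT MII (log2 fold change -2.02, limma adjusted p = 6.65e-07), and 189 ± 20.2 and 44.1 ± 4.51 FPKM in Psma7 cKO (-2.10, adjusted p = 1.22e-06; n = 4 each). Slc30a6 had 3.76 FPKM in WT GV oocytes and 0.658 FPKM in WT eggs (-1.88), and 4.77 and 1.51 FPKM in Psma7 cKO (-1.76). In WT it passed the filter through the GV group, as its egg mean was below 1 FPKM.

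Smaller falls were seen for Slc30a9 (-0.71 in WT and -0.76 in Psma7 cKO, log2), for the Golgi transporter gene Slc39a9 (-0.82 and -0.59) and for Slc30a5, the partner of Slc30a6 in the secretory pathway (-0.40 and -0.44). The median of all entries tested was -0.44 in WT and -0.42 in Psma7 cKO, close to the values of Slc30a5. The calls of Slc30a5 were lost in both genotypes after rescaling by the median ratio (adjusted p = 0.215 and 0.159), and in WT also without WT GV replicate 2, WT GV replicate 4 or WT MII replicate 2 (adjusted p from 0.0504 to 0.0558). That of Slc39a9 in Psma7 cKO was lost after rescaling (adjusted p = 0.0518). The single Slc39a7 entry that could be tested, for a transporter of the endoplasmic reticulum, fell in Psma7 cKO (-1.14, limma adjusted p = 0.00220). Its means there were 2.34 FPKM in GV oocytes and 0.281 FPKM in eggs, so that it passed the filter through the GV group. Setting its egg values to 1 FPKM shortened this log2 change. By the means, Slc39a7 fell by a larger factor than Slc30a3. In WT its means were also lower in eggs, 1.55 FPKM in GV oocytes and 0.168 FPKM in eggs, but it was below the filter and not tested.

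**Figure D4:**
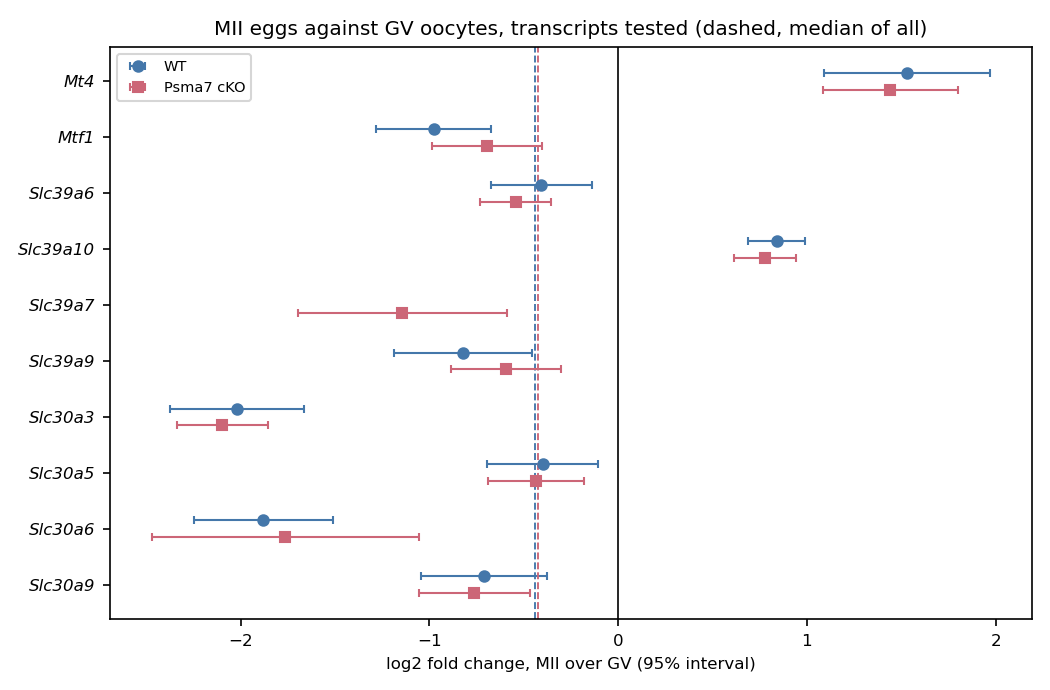
Log2 fold change of MII eggs over GV oocytes with its 95% interval (limma, n = 4 libraries per group) in WT (circles) and Psma7 cKO (squares), for Mt4, Mtf1 and the zinc transporters that were tested; dashed lines mark the median of all entries, -0.44 in WT and -0.42 in Psma7 cKO. Mt4 and Slc39a10 lie right of 0 in both genotypes and the others left of it.

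Mt1 itself fell during maturation of Psma7 cKO oocytes, a contrast not used in choosing the set. All 4 egg libraries were below all 4 GV libraries, and the log2 fold change was -1.48 (standard error 0.32, limma adjusted p = 0.00253), to 39.1% of the GV mean, where the median of all entries was -0.42. Separation between stages was common, as 68.6% of entries in Psma7 cKO did not overlap in either direction and 51.0% were called lower. When each library was left out it lay between -1.79 and -1.20, with adjusted p from 9.18e-05 to 0.00975, and after median-ratio rescaling it was -1.23. The 4 egg libraries differed more than the GV libraries did, since replicates 1 to 4 retained 31.0%, 19.8%, 67.7% and 37.7% of the Psma7 cKO GV mean of Mt1. Zp3, the zona pellucida gene whose promoter drives Cre, ranked these libraries in the same order, with 18.8%, 17.4%, 31.7% and 23.5% of its Psma7 cKO GV mean (781, 722, 1314 and 974 FPKM). This likeness was not particular to Zp3, which ranked 1108 of 10614 entries by Pearson r with Mt1 over the 8 Psma7 cKO libraries.

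**Figure D5:**
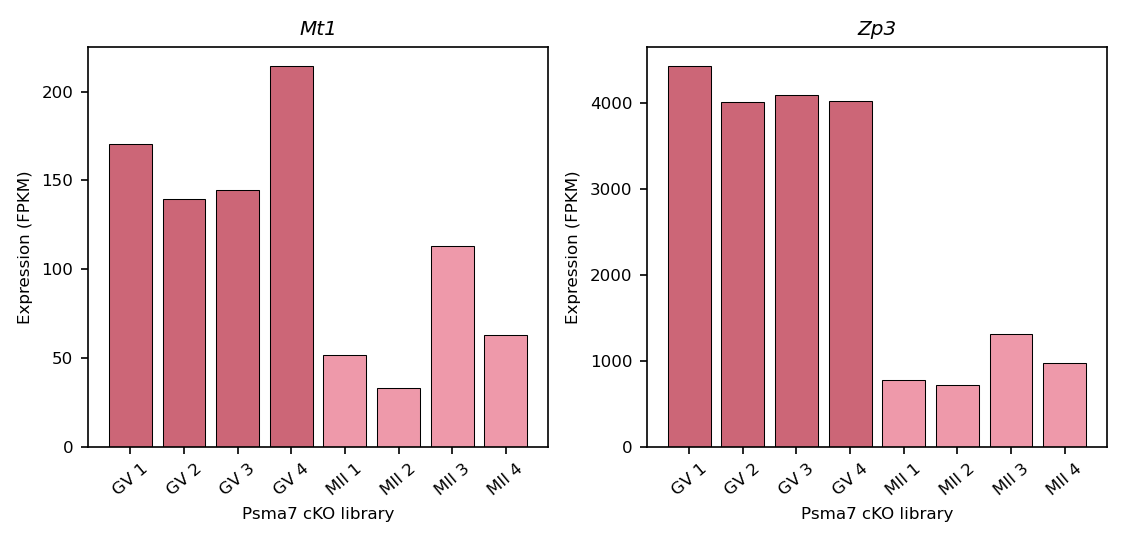
FPKM of Mt1 (left) and Zp3 (right) in each of the 8 Psma7 cKO libraries (bars, linear axes from 0; GV 1 to 4 are oocytes, MII 1 to 4 are eggs). Both transcripts are lower in all egg libraries, and egg replicate 3 has the most of both (113 and 1314 FPKM) and egg replicate 2 the least (33.2 and 722 FPKM).

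Zp3 had means of 3977 and 4146 FPKM in WT and Psma7 cKO GV oocytes, and of 406 and 948 FPKM in eggs. It was higher in Psma7 cKO eggs than in WT eggs (log2 fold change 1.20, limma adjusted p = 0.0203), but without WT MII replicate 1, 3 or 4 the adjusted p was 0.0701, 0.0576 and 0.0570. Its part in the Mt1 values was not tested. Whether the genotype difference changed with stage was tested over all 16 libraries, where 1.26% of 10615 entries passed. Of the 4 genes tested besides Mt1, 0 passed and 0 had an unadjusted p under 0.05 (17.7% of all entries did). The interaction was -0.09 for Mt4 (95% interval -0.66 to 0.49), 0.28 for Mtf1 (-0.11 to 0.67), -0.14 for Slc39a6 (-0.46 to 0.18) and -0.06 for Slc39a10 (-0.24 to 0.12).

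Within each group the genes could be ordered by level per length. In WT GV oocytes the order was Slc39a6, Slc39a10, Mt4 and Mtf1, with Mt4 (8.10 FPKM) and Mtf1 (7.86 FPKM) overlapping, and the remaining genes below 1 FPKM. In Psma7 cKO GV oocytes Mt1 stood first, above Slc39a6 with no overlap, and the order below it was as in WT, with Mt4 (7.59 FPKM) and Mtf1 (7.34 FPKM) again overlapping. In WT eggs it was Slc39a10, Slc39a6, Mt4 and Mtf1, with no overlap between neighbours. In Psma7 cKO eggs Mt1 took the third place, overlapping with Slc39a6 (65.3 and 76.9 FPKM) and above Mt4 (20.6 FPKM).

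Genes whose pattern was most like that of Mt1 were ranked by Pearson r on log2 FPKM, with values below 1 set to 1, among 10614 entries. Over all 16 libraries the highest were BC147527 (0.867), Zfp354b (0.865), Cep78 (0.861), Zfp939 (0.845) and Bloc1s4 (0.828), and Psma7 was last of all at -0.926. Over the 8 Psma7 cKO libraries high values were those of the ribosomal protein gene Rpl36a (0.996), Iqcf5 (0.994), Cyb5a (0.993) and the complex I gene Ndufc1 (0.993). In those 8 libraries r was 0.923 for Zp3 (rank 1108), 0.923 for Mtf1 (rank 1120), 0.766 for Slc39a6, -0.853 for Mt4 and -0.877 for Slc39a10. The libraries form groups of 4 that share both genotype and stage, so that these values mainly order genes by how they differ between groups. Over all 16 libraries the order rests on the genotype difference of Mt1 that was known when the set was picked. Psma7 is the deleted gene, so that its last place follows from the design, and this ranking is a description only.

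Lists of genes that respond to metals or to other inducers of metallothionein were read between genotypes as well. Of the 5 MTF1 targets other than Mt1 (Mt2, Slc30a1, Slc39a10, Selenoh and Gclc), 2 were tested at each stage and 0 changed, where 0.118% of all entries did in GV oocytes and 8.02% in eggs. At an unadjusted p under 0.05, 1 of the 2 differed at each stage, against 10.7% and 29.4% of all entries. These were Selenoh, which encodes a selenoprotein, higher in Psma7 cKO GV oocytes, and Slc39a10, lower in Psma7 cKO eggs. The list does not separate targets that MTF1 raises from targets that it lowers. Selenoh had 0.940 ± 0.472 FPKM in WT GV oocytes and 1.59 ± 0.311 FPKM in Psma7 cKO GV oocytes (SD, n = 4 each), with a log2 difference of 0.44 and a limma adjusted p of 0.449. Its WT mean was below 1 FPKM, so that Selenoh passed the filter only through the group where it was high. Of 7 targets of the oxidative stress factor NRF2, 5 were tested in GV oocytes and 6 in eggs, and 0 changed at either stage (median log2 fold change -0.06 and 0.11), with 0 and 2 at an unadjusted p under 0.05. Of 7 glucocorticoid targets 3 were tested at each stage and 0 changed, also at an unadjusted p under 0.05. Of 7 copper handling genes 6 were tested, with 0 changed in GV oocytes and 1 higher in Psma7 cKO eggs, Ccs, the copper chaperone of superoxide dismutase. Of 7 iron handling genes 6 were tested, with 0 changed in GV oocytes and 2 higher in Psma7 cKO eggs, Fth1, which encodes ferritin heavy chain, and Slc11a2, which encodes an importer of iron and other divalent metals. At an unadjusted p under 0.05, 0 copper and 2 iron handling genes differed in GV oocytes, and 2 and 3 in eggs. The 3 genes higher in eggs stood beside 6.53% of all entries higher in Psma7 cKO eggs.

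In eggs Ccs had 0.691 ± 0.448 FPKM in the WT group and 2.79 ± 1.44 FPKM in Psma7 cKO (log2 fold change 1.24, limma adjusted p = 0.0491). Ccs passed the filter only through the Psma7 cKO group, as its WT mean was below 1 FPKM, so that its call is given as a description. Fth1 had 8.58 ± 2.11 and 34.2 ± 22.9 FPKM (1.78, adjusted p = 0.0407), and Slc11a2 had 1.11 ± 0.135 and 1.90 ± 0.454 FPKM (0.76, adjusted p = 0.0471; n = 4 each). All 3 calls were lost when any 1 of the WT egg libraries was left out, and without Psma7 cKO egg replicate 1 or 3, and those of Fth1 and Slc11a2 also without replicate 4, with adjusted p up to 0.131, 0.104 and 0.128. In GV oocytes the 3 genes had similar means, 9.48 and 10.6 FPKM for Ccs, 115 and 116 FPKM for Fth1, and 11.7 and 12.2 FPKM for Slc11a2, in WT and Psma7 cKO.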

How the data were processed

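Libraries were made from pooled oocytes with the Smart-seq2 method, which primes with oligo-dT and so reads polyadenylated RNA. Spike-in RNA was added but was not used here, and FPKM values are relative within a library: fewer transcripts per oocyte and a larger total of other RNA cannot be told apart. The authors deposited FPKM values per gene, made with TopHat2 2.1.1 and Cufflinks 2.2.1 on mm10 according to the submitters' processing notes, and set values below 1 to 1 before comparing. The annotation used was not given in the sources used here.

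From these values, log2 FPKM with the same floor of 1 was tested with limma 3.58.1 (R 4.3.3, trend) on every entry with a mean of at least 1 FPKM in the libraries compared, with Benjamini-Hochberg adjustment over all of them and a threshold of 0.05. A fold change on this scale understates the change of low genes. Fits were tested on simulated data with 200 entries changed 4-fold, of which 199 were recovered for genotype in GV oocytes, 191 in eggs, 198 and 194 for stage in WT and Psma7 cKO, and 184 for the interaction. False calls numbered 13, 12, 3, 8 and 10 in the same order. A 4-fold change is larger than the genotype differences of the tested members other than Mt1. The recovery therefore does not measure the power for differences of their size. Depth was estimated from the step of low values in 5816 genes with 1 transcript. Genes named are the members, list genes that passed a test or explain a count, the 5 entries most like Mt1 over all and over Psma7 cKO libraries, genes starting within 100 kb of Mt1, Psma7 and Zp3. A gene that this rule names is not reported here. Members and lists were chosen with earlier results of these data known. Promoter windows were found for 9 of 10 members. Alternatives were another floor, 1 FPKM added, other filters, no trend, entries summed per gene name, median-ratio rescaling, all libraries in one fit, a replicate block and leaving out each library.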

Additional observations from a re-analysis of the deposited data

Results flagged for a closer look

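Within groups of 4 libraries, 2 of 40 gene and group combinations held a library far from the others. In 6 of the 40 all libraries were at 0, which left 34 with any spread. The threshold for a far library was the 95% critical value of Dixon's test, which chance passes in about 1 in 20 groups of normally distributed values, and the rate for such FPKM values was not measured. Mt2 in Psma7 cKO GV replicate 1 had 0.14065 FPKM, the only value above 0 for Mt2. Where all other libraries of a group are at 0, any value above 0 passes this threshold, and this value was 1 fragment. Slc39a10 in WT MII replicate 1 had 125.707 FPKM, above the other WT egg libraries.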

How the results depend on the processing

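Counts of genes past the threshold, for the set and for the 24 zinc transporters, stayed within 1.5 times the value given in 183 of 184 recomputations. The exception was the number of zinc transporters that changed from GV to MII in Psma7 cKO, which went from 8 to 5 when a mean of at least 5 FPKM was required, a setting that tests fewer genes. When each library was left out, that number was 7 to 8 in Psma7 cKO and 6 to 7 in WT, and those for the set did not move. For single genes, 767 recomputed values kept their direction and side of the threshold, 63 no longer passed, 4 newly passed and 7 changed sign, none of which passed in either case. The 767 include the genotype values of Mt1, 17 at each stage, and 21 of the 24 of its interaction, which is also among the 4. These Mt1 values rest on the difference known when the set was picked, so that their stability is a description only. The 7 were Mt4 between genotypes in GV oocytes, at 0.072, 0.023 and 0.037 without WT GV replicate 1, WT GV replicate 2 and Psma7 cKO GV replicate 3 (log2, range -0.20 to 0.072 over all libraries left out), the Mt4 interaction, at 0.0049 and 0.050 without WT GV replicates 3 and 4 (range -0.23 to 0.050), Slc39a6 between genotypes in GV oocytes, at -0.022 without WT GV replicate 3 (range -0.022 to 0.093), and in eggs, at 0.019 without WT MII replicate 3 (range -0.16 to 0.019). Rescaling by the median ratio moved the median stage change of all entries from -0.44 to -0.22 in WT and from -0.42 to -0.17 in Psma7 cKO. Replicate numbers did not pair the libraries (correlations of same-numbered libraries from -0.496 to 0.285). A fit with the replicate number as a block left the counts for the set at 0 and 0 between genotypes and at 4 and 5 between stages, and raised the adjusted p of Zp3 in eggs to 0.0502, of Ccs to 0.0818, of Fth1 to 0.0702 and of Slc11a2 to 0.0793. Other settings also ended the calls of Ccs and Fth1 (adjusted p = 0.0578 and 0.0529 without the trend) and of Slc11a2 (0.0518 to 0.0804 with a floor of 0.1 FPKM, 1 FPKM added, no filter or rescaling). Without any filter on low values most of the variances were 0, so that setting says little. Depth left Mt2, Mt3, Slc30a1 and Slc39a8 at a few fragments per library, too few for a comparison.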
